A study of Mus musculus with 16 samples.

Results

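The span from newborn to weaning was examined by setting ventricles of 4 mouse pups at postnatal day 23 (P23) against ventricles of 4 pups at day 1 (P01), within a series of 16 small RNA libraries that also holds 4 pups at P04 and 4 at P09. All pups were untreated males and females of the strain C57BL/6JOlaHsd, with 1 library per animal, and the sex of a given library was not used. Mouse chow was on offer at P23 in addition to suckling, but not at P01, so that age and diet cannot be told apart here. Genes of every RNA class were counted, and 10742 of 53801 passed a filter on low counts and were tested. The account below gives most room to RNAs other than microRNAs (miRNAs).

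In the first weeks after birth the mouse ventricle turns from a fetal-type muscle, which still forms new cardiomyocytes and draws much of its energy from glucose and lactate, into an adult-type muscle that grows by enlarging existing cells. Sarcomere proteins are exchanged for adult paralogues, sarcoplasmic reticulum and ion channels mature, and mitochondria multiply and burn fatty acids. Imprinted genes that drive fetal growth are known to be silenced over the same weeks in many organs.

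The kit polyadenylates RNA 3′ ends in total RNA, and counts on a messenger RNA (mRNA) or other long gene may come from fragments of it, which was not tested. Some long genes named below span small RNA genes, such as Myh6 (Mir208a), Igf2 (Mir483), Mest (Mir335), Meg3 (Mir770), Rian (Mir370) and Zfas1 (Snord12). Reads of such small RNAs cannot be told apart from those of the host here. P23 libraries held 4694722 to 5553530 counts and P01 libraries 2301587 to 2904097. Values below are normalized counts, which are counts scaled by library size and TMM factors, and they are given for replicates 1, 5, 6 and 8 in that order at both ages. Levels of different genes are not compared, since gene length was not corrected for. The first principal component held 51.0% of the variance and put the P23 libraries at 56.1 to 70.8 and the P01 libraries at −62.2 to −54.7. Of 9 ventricular cardiomyocyte markers tested, 7 rose and 0 fell, and their summed level was 69479.8 to 94912 in P23 libraries and 33134 to 36122 in P01 libraries. Lung markers summed to 0 to 4.06 in P23 libraries and 1.41 to 4.4 in P01 libraries.

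Mitochondrial RNA took a larger part of the P23 libraries, and nuclear ribosomal RNA (rRNA), mRNA and C/D box small nucleolar RNA (snoRNA) a smaller one. Mitochondrial rRNA made up 30.9% ± 2.06 of the counts at P23 and 15.0% ± 0.945 at P01 (SD, n = 4 each). Mitochondrial transfer RNA (tRNA) made up 6.47% ± 0.385 at P23 and 2.3% ± 0.151 at P01, and mitochondrial mRNA 5.07% ± 1.32 at P23 and 1.68% ± 0.255 at P01. Nuclear rRNA took 30.7% ± 1.5 at P23 and 45% ± 2.12 at P01, and protein-coding nuclear genes took 12.8% ± 1.88 at P23 and 17.8% ± 0.727 at P01. The nuclear rRNA class includes Gm42418 and Gm26917, gene models of long non-coding RNA that were assigned to it by hand, and Gm42418 holds most of its counts. C/D box snoRNAs, which guide methylation of rRNA, took 4.91% ± 0.423 at P23 and 7.43% ± 0.384 at P01, whereas H/ACA snoRNAs took 0.478% at P23 and 0.473% at P01, with overlap.

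No P23 library overlapped a P01 library in the first 6 classes, from mitochondrial rRNA to C/D snoRNAs, and each reached p = 0.0286 in a two-sided exact permutation test, the smallest p that the 70 assignments of 8 libraries allow (adjusted p = 0.049 over the classes). The same held for miRNAs, with 2.54% ± 0.351 at P23 and 3.5% ± 0.328 at P01. The adjusted p depends on how many classes reach this smallest p. Shares of one total depend on each other. With mitochondrial and nuclear rRNA genes left out of the total, protein-coding genes at P23 were at 0.962 times their P01 share, C/D snoRNAs at 0.889 times and miRNAs at 0.971 times. None of these passed the exact permutation test (adjusted p = 0.588, 0.152 and 0.771). Long non-coding RNAs (lncRNAs) took 1.8% at P23 and 1.35% at P01 of all counts and did not pass it (exact permutation, adjusted p = 0.0857). Without the rRNA genes in the total they took 6.68% at P23 and 3.75% at P01, with no overlap, and again did not pass after adjustment (exact permutation, p = 0.0286, adjusted p = 0.114). A single lncRNA gene, 4930583K01Rik, weighs heavily in this share. It averaged 71620 ± 19570 normalized counts at P23 and 7033 ± 8122 at P01 and was not called gene by gene (edgeR adjusted p = 0.126). The share without this gene was not tested.

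**Figure D1:**
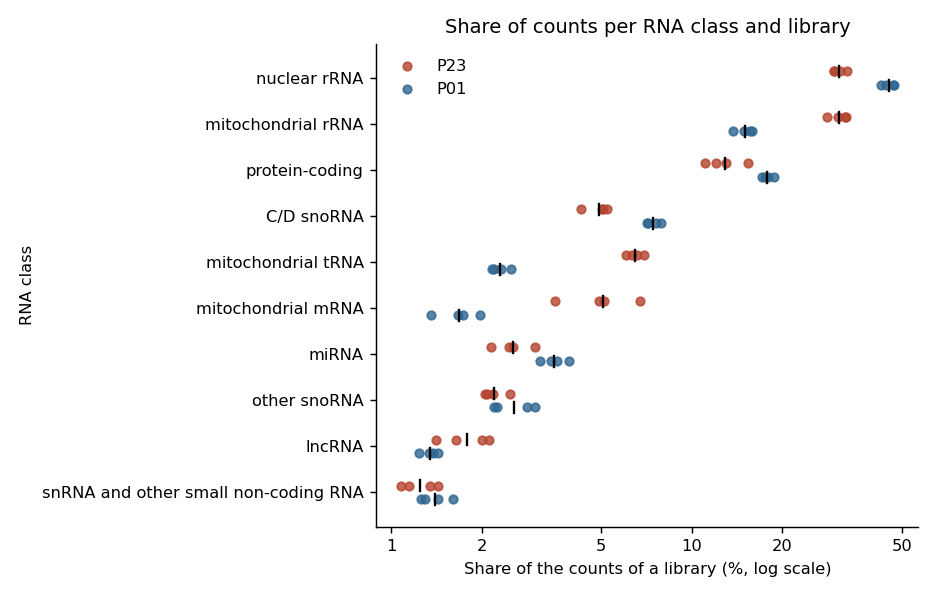
Share of each library's counts (x axis, %, log scale) taken by 10 RNA classes (y axis) in P23 libraries (red) and P01 libraries (blue). Points are libraries and black bars are means of 4; mitochondrial rRNA lay at 30.9% on average at P23 and 15.0% at P01, without overlap.

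Gene by gene, a gene was called when edgeR's adjusted p was under 0.01 and its fold change over 1.8. By this rule 1454 genes rose (13.5% of those tested), 1787 fell (16.6%) and 7501 were not called. The 2 groups of libraries did not overlap for 41.7% of all tested genes. Leaving miRNAs out, 1425 genes rose and 1698 fell. Falls were larger than rises, with a median of 1.97 for the size of the log2 fold change among falling genes and 1.31 among rising genes. A change of at least 16-fold was seen for 141 falling and 35 rising genes. The balance of the directions rests on the scaling. With library totals as the only scaling, 722 genes rose and 2733 fell, so that rises were 20.9% of calls in place of 44.9%, and the median of all genes shifted by −0.37 on the log2 scale, while 0 genes changed direction among those called both ways. In the lists below, the median log2 fold change of all tested genes, 0.00, is the background. Counting fewer cells of a type and less RNA per cell cannot be told apart in whole ventricles.

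The exchange of fetal for adult sarcomere proteins was seen among abundant mRNAs. Tnni1, which encodes the slow skeletal troponin I of the fetal heart, had 0, 0.962, 1.87 and 0 normalized counts in P23 libraries, against 863, 812, 899.7 and 927 in P01 libraries. Only 3 reads were counted at P23 and 2268 at P01, a P01 over P23 ratio of 1102 with a counting interval of 377 to 5349.7 (95%, counting error only). Its adult partner Tnni3, cardiac troponin I, had 2908, 2884, 2774 and 3158 in P23 libraries and 1106, 1020.2, 1085 and 1056 in P01 libraries, a 2.75-fold rise (edgeR adjusted p = 2.13e-10). The groups were apart for both genes, and Tnni1 was close to the detection limit in every P23 library.

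Myosin heavy chain showed the same exchange. Myh7, the slow beta isoform, had 20.9, 23.1, 26.1 and 9.47 normalized counts in P23 libraries and 3889, 3479.7, 3285 and 3798 in P01 libraries (log2 fold change −7.47 ± 0.24, SE, edgeR adjusted p = 1.24e-20). The gene holds the miRNA gene Mir208b, whose reads cannot be told apart from those of its host here. Myh6, the fast alpha isoform of the adult mouse heart, averaged 13607 ± 1495 at P23 and 3283 ± 132 at P01 (SD, n = 4 each), a 4.14-fold rise. Mhrt, an lncRNA transcribed antisense to Myh7, averaged 136 ± 7.66 at P23 and 47.1 ± 13.9 at P01. The strand setting of the counting is not given in the sources used here, so reads of Mhrt and of the overlapping myosin genes could be mixed.

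Of 14 tested genes of the thin filament and Z-disc, 6 rose and 3 fell, with a median log2 fold change of 0.77. The strongest rise in this list was Tcap, the titin cap, with 277, 231, 261 and 312 normalized counts in P23 libraries and 43.8, 55, 36.7 and 33.7 in P01 libraries. Tpm1, alpha tropomyosin, rose 3.72-fold to 7755 ± 299.5 at P23, against 2086 ± 66.8 at P01, while Tpm2, beta tropomyosin, fell to 13.7 ± 1.87, against 35.7 ± 5.17. Among 14 genes of the thick filament, titin and the M-band, 7 rose and 2 fell with a median of 0.96, against 4 and 3 with library totals. Titin itself (Ttn), the molecular spring of the sarcomere, rose 2.6-fold to 31188 ± 7665 at P23, against 12008 ± 1125 at P01. The atrial light chain Myl4 fell to 33.9 ± 15, against 131 ± 19.8 (log2 fold change −1.98 ± 0.42).

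The exchange went beyond the sarcomere. In 14 pairs of paralogues, the share of the muscle or adult member in the pair's raw counts was higher in every P23 library than in any P01 library. Myh6 took 99.86% ± 0.0422 of the counts of Myh6 and Myh7 at P23 and 47.7% ± 2.57 at P01, and Tnni3 took 99.97% ± 0.0322 of the troponin I pair at P23 and 54.9% ± 1.29 at P01. Eef1a2, the elongation factor of adult muscle and neurons, took 58.7% ± 7.39 of the counts of Eef1a2 and Eef1a1 at P23 and 6.73% ± 0.711 at P01. Rpl3l, a striated muscle form of ribosomal protein L3, took 59.9% ± 6.29 of its pair at P23 and 2.09% ± 1.49 at P01. Slc2a4, the insulin-responsive glucose transporter, held 84.6% ± 4.25 of its pair with Slc2a1 at P23 and 29.7% ± 6.16 at P01. These shares are not corrected for gene length, the pairs were picked with results of these data known, and they carry no test.

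For alpha tubulin, Tuba4a held 90.0% of its pair with Tuba1a at P23 and 19.2% at P01. For the muscle subunits of cytochrome c oxidase, Cox7a1 held 52.0% of its pair with Cox7a2 at P23 and 22.6% at P01, and Cox6a2 held 88.9% of its pair with Cox6a1 at P23 and 53.8% at P01. In glycolysis, Hk2 held 71.2% of its pair with Hk1 at P23 and 31.7% at P01, and Pfkm held 67.9% of its pair with Pfkl at P23 and 28.7% at P01. The times differed, since Myh6 had reached 90.1% of its pair by P04, whereas Tnni3 stood at 63.6% at P04 and 86.9% at P09, and Rpl3l at 3.19% at P04 and 6.05% at P09.

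**Figure D2:**
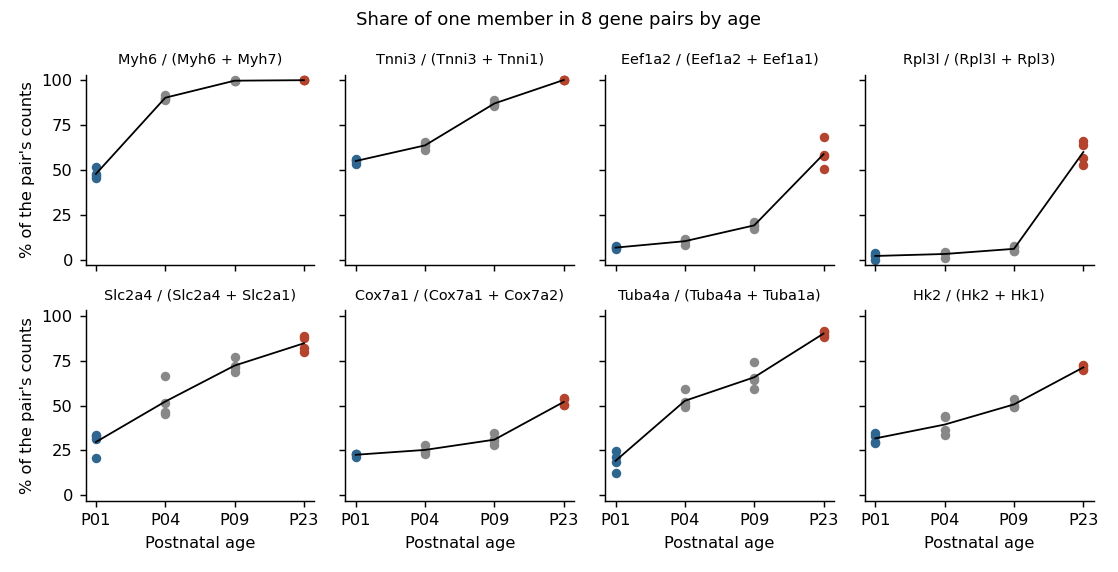
Share of one paralogue in the raw counts of its pair (y axis, %) at P01, P04, P09 and P23 (x axis) for 8 of the 14 pairs. Points are libraries and lines join the means of 4; Myh6 was at 90.1% by P04, whereas Rpl3l was at 6.05% at P09 and 59.9% at P23.

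Of 19 tested genes of calcium handling, 9 rose and 1 fell (median log2 fold change 0.59), and 5 rose with library totals. Hrc, the histidine-rich calcium-binding protein of the sarcoplasmic reticulum, had 642, 642, 668 and 589.8 normalized counts in P23 libraries and 81.6, 53.1, 98.9 and 67.5 in P01 libraries, an 8.38-fold rise. Atp2a2, the calcium pump of the sarcoplasmic reticulum, rose 5.47-fold to 8606 ± 1524 at P23, against 1572 ± 58.9 at P01 (edgeR adjusted p = 8.96e-13). Its inhibitor phospholamban (Pln) rose 2.85-fold and the release channel Ryr2 2.58-fold. Cacna1h, a T-type calcium channel, was the member that fell, with a log2 fold change of −1.16.

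Of 15 tested potassium, sodium and pacemaker channel genes, 9 rose and 1 fell, with a median of 1.54. Kcnd2, a channel of the transient outward potassium current, had 51.6, 62.5, 52.3 and 39.2 normalized counts in P23 libraries and 4.53, 1.9, 7.06 and 2.93 in P01 libraries, an 11.9-fold rise. Kcne1, a subunit of the slow delayed rectifier, was the exception. It fell to 41.1 ± 7.55 at P23, against 107 ± 17.4 at P01, although it stood at 172 at P04 and 215 at P09. At the intercalated disc, where cardiomyocytes join end to end, 5 of 13 genes rose and 0 fell, and 3 rose with library totals. Xirp2, an actin-binding protein of the disc, had 608, 584, 776 and 537 in P23 libraries and 13.6, 17.1, 9.89 and 24.9 in P01 libraries, a 38.1-fold rise, and the desmosome protein Dsp rose 2.19-fold (log2 0.78 and no longer called with library totals).

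For fatty acid uptake and oxidation, 18 of 27 tested genes rose and 0 fell, with a median log2 fold change of 1.18. Ech1, an enoyl-CoA isomerase of beta oxidation, had 365, 441, 396 and 356 normalized counts in P23 libraries and 52.9, 81.5, 55.1 and 67.5 in P01 libraries (log2 fold change 2.61 ± 0.15, edgeR adjusted p = 7.46e-15). Plin5, which coats lipid droplets, rose 5.74-fold, Cpt2, which releases acyl-CoA inside mitochondria, 4.95-fold, and lipoprotein lipase (Lpl) 3.81-fold. Not all members moved. Cpt1a, the liver form of carnitine palmitoyltransferase, was at −0.53 and Hadhb, a subunit of the trifunctional protein, at −0.17 on the log2 scale, and neither was called.

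Of 22 genes of pyruvate dehydrogenase and the cycle, 18 rose and 0 fell (median 1.09), and of 16 genes of branched-chain amino acid breakdown, 11 rose and 0 fell (median 1.19). Ogdh, a subunit of 2-oxoglutarate dehydrogenase, had 1161, 963, 1312 and 844 normalized counts in P23 libraries and 254, 248, 254 and 244 in P01 libraries. Citrate synthase (Cs) rose 2.83-fold and Sucla2, a subunit of succinyl-CoA ligase, 3.46-fold. Ppm1k, the phosphatase that activates the branched-chain dehydrogenase, rose 4.12-fold to 108 ± 23.6 at P23, against 26.2 ± 4.24 at P01. Oxct1, which activates ketone bodies for oxidation, averaged 1088 ± 31.6 at P23 and 307 ± 48.5 at P01. With library totals as the only scaling, 12 fatty acid, 7 tricarboxylic acid cycle and 7 branched-chain genes rose.

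Of 79 tested respiratory chain subunits encoded in the nucleus, 36 rose and 1 fell, with a median of 0.80. Their number depends on the fold threshold and the scaling, since 70 rose at an adjusted p under 0.05 with no fold minimum and 5 rose with library totals. The 3 strongest rises were the muscle isoforms Cox7a1 (2.09), Cox8b (1.58) and Cox6a2 (1.56 on the log2 scale), and the member that fell was Cox6a1, the isoform that Cox6a2 replaces in muscle, at 168 ± 3.9 at P23 and 398 ± 88.1 at P01. Ckmt2, the creatine kinase of cardiac mitochondria, had 1277, 1157, 1349 and 1149.7 normalized counts in P23 libraries and 104, 106, 109 and 104 in P01 libraries, an 11.6-fold rise. Myoglobin (Mb), which stores oxygen, rose 5.69-fold to 4195 ± 309.6 at P23, against 737 ± 37.5 at P01.

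Most tested RNAs of the mitochondrial genome rose. Of 8 tested mitochondrial mRNAs 7 rose (median 2.07), and of 17 tested mitochondrial tRNAs 14 rose (median 2.13). The exception among mRNAs was mt-Nd6, the mRNA of the light strand, with 1070.1, 1033, 1248 and 398 normalized counts in P23 libraries and 919, 549.9, 734 and 871 in P01 libraries (log2 fold change 0.29 ± 0.27, edgeR adjusted p = 0.402, and −0.05 with library totals). By contrast mt-Nd5 rose 5.72-fold to 46569 ± 11610.0 at P23, against 8138 ± 1938 at P01, and mt-Co1 rose 5.35-fold. The large mitochondrial rRNA mt-Rnr2 rose 3.5-fold, whereas mt-Rnr1 was 1.7-fold higher and not called. Of the tRNAs, mt-Tr rose 9.77-fold and mt-Tl2 6.34-fold. The tRNA mt-Th had 104, 95.2, 96.1 and 96 in P23 libraries and 0, 0, 0 and 2.93 in P01 libraries, where 2 reads were counted, a P23 over P01 ratio of 126 (34.7 to 1046, 95% counting interval). Reads of mitochondrial genes may be fragments of larger transcripts or come from nuclear copies, which was not tested.

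Glucose metabolism moved in both directions. Of 21 tested genes of glycolysis and lactate, 8 rose and 3 fell. Slc2a4 rose 4.86-fold and hexokinase Hk2 4.9-fold, while Slc2a1, the basal glucose transporter, fell to 28.2 ± 7.75 at P23, against 77.1 ± 19.1 at P01. Slc16a3, a lactate exporter of glycolytic cells, had 1.1, 0.962, 0.933 and 1.35 normalized counts in P23 libraries and 21.1, 11.4, 25.4 and 20.5 in P01 libraries. Ldhb rose 1.83-fold and Ldha fell by 0.90 on the log2 scale, both close to the fold threshold. Ldhb was no longer called without P23 replicate 1 (0.85) or P01 replicate 8 (0.84), nor Ldha without P23 replicate 5 (−0.84), and Ldhb was at 0.50 and not called with library totals.

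Among 17 tested transcription factors and cofactors of metabolism, 7 rose and 2 fell. Perm1, a muscle regulator of mitochondrial genes, had 213, 173, 258 and 211 normalized counts in P23 libraries and 28.7, 19, 21.2 and 19.1 in P01 libraries, a 9.64-fold rise. The retinoid receptor Rxrg rose to 39.1 ± 8.83 at P23, against 2.05 ± 1.17 at P01, and Ppara, the fatty acid sensor, rose 3.27-fold. Esrra, an orphan receptor that drives mitochondrial genes, rose 2.03-fold, with 0.65 on the log2 scale and no call with library totals, and its coactivator Ppargc1a was not called (0.47). Nrf1, a factor of nuclear-encoded mitochondrial genes, fell to 23.2 ± 5.49 at P23, against 145 ± 29.5 at P01. The thyroid hormone receptor Thrb, counted with 95 reads at P23 and 1 at P01, had a P23 over P01 ratio of 65.1 (11.4 to 2600.0, 95% counting interval), and Klf9, a target of thyroid and glucocorticoid receptors, rose 3.34-fold. Cardiac lineage factors stayed mostly uncalled, with 1 of 15 rising and 2 falling (0 and 4 with library totals), and Nkx2-5 was at 0.02 and Gata4 at 0.33 on the log2 scale.

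**Figure D3:**
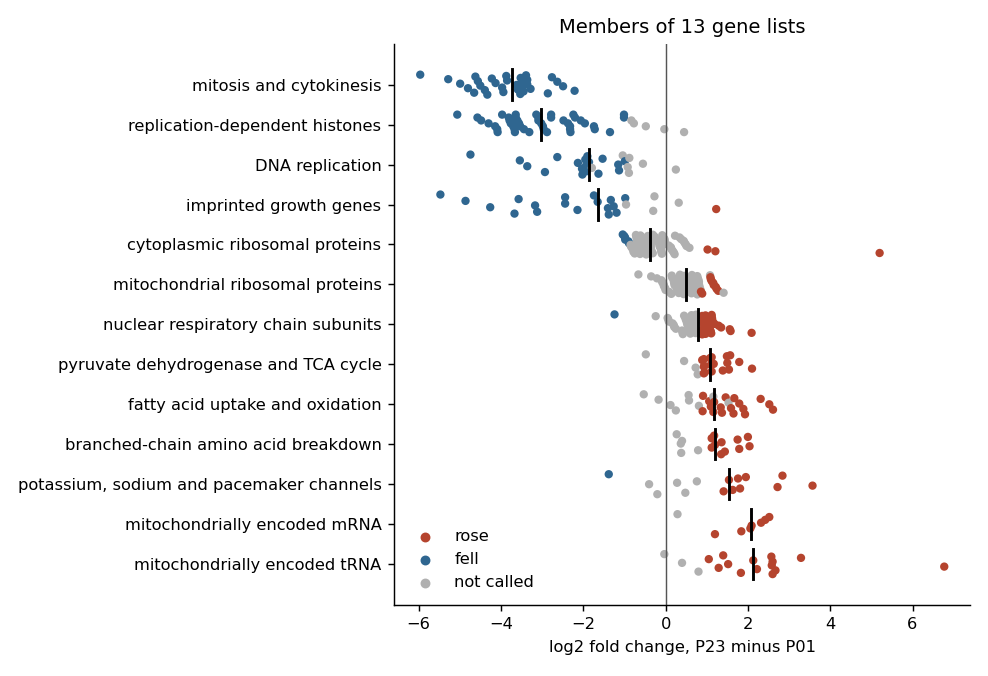
Log2 fold change, P23 minus P01 (x axis), of the tested members of 13 gene lists (y axis). Each point is a gene, coloured by its call, and black bars are medians; all 32 mitosis genes fell, with a median of −3.74, and mitochondrially encoded tRNAs had a median of 2.13.

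Genes of cell division fell. All 32 tested genes of mitosis and cytokinesis fell, with a median log2 fold change of −3.74, and 18 of 25 tested genes of DNA replication fell and 0 rose, with a median of −1.86. Top2a, the topoisomerase of dividing cells, had 13.2, 12.5, 20.5 and 17.6 normalized counts in P23 libraries and 266, 226, 267 and 169 in P01 libraries, a 14.4-fold fall. Mki67, the proliferation antigen, averaged 14.2 ± 2.89 at P23 and 171 ± 28.4 at P01. Cdk1, the kinase that starts mitosis, fell to 1.43 ± 1.16, against 46.3 ± 15.9 (log2 fold change −4.99 ± 0.39, edgeR adjusted p = 3.93e-12). Its cyclin Ccnb1 was counted with 1 read at P23 and 62 at P01, a P01 over P23 ratio of 90.4 (15.6 to 3628, 95% counting interval), and the kinase Plk1 with 3 and 66 reads, a ratio of 32.1 (10.5 to 159.5).

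In replication, Rrm2, a subunit of ribonucleotide reductase, averaged 5.3 ± 3.06 at P23 and 60.6 ± 8.09 at P01, and E2f1, a factor of S-phase genes, 10.1 ± 3.72 at P23 and 103 ± 21.2 at P01. Pcna, the sliding clamp, fell by less, to 16.5 ± 6.8 at P23, against 34.9 ± 1.7 at P01. These are low counts, and with the libraries thinned to the depth of the shallowest, or in a fit of the P23 and P01 libraries alone, 11 replication genes fell. Of 49 tested genes of replication-dependent histones, whose mRNAs are made in S phase, 44 fell and 0 rose, with a median of −3.02. Hist1h4a had 3.3, 0, 1.87 and 4.06 in P23 libraries and 69.5, 91, 79.1 and 63.1 in P01 libraries. Histone genes are near-identical copies, so that reads could be split among them in a way the sources used here do not state.

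Of 8 tested G1 cyclins, kinases and Myc genes 5 fell, and Cdk4, which drives entry into S phase, averaged 27.7 ± 4.11 at P23 and 73.7 ± 12.9 at P01. Inhibitors of the cycle did not rise as a group, with 1 of 12 rising and 4 falling. The inhibitor Cdkn2b fell to 14.7 ± 4.11 at P23, against 114 ± 30.7 at P01, and Cdkn1c, which is imprinted, to 14.5 ± 7.61, against 63.2 ± 9.16. The list member that rose was Ccng1, a cyclin gene and target of p53, with 618 ± 121 at P23 and 119 ± 11.3 at P01, a 5.2-fold rise. The inhibitors Cdkn1a (−0.34) and Cdkn1b (0.08) were not called.

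Promoters of the mitosis genes share letters that the choice of genes did not use. The cell cycle genes homology region (CHR, TTTGAA or TTCGAA) and the CCAAT box are elements through which mitosis genes are known to be repressed and activated, and E2F sites belong to genes of S phase. Promoters of RefSeq on GRCm38.p6, from 250 bases before to 50 bases after a gene's start, were searched on both strands. A CHR was present in 22 of 27 mitosis genes with a promoter in the table (81.5%), against 15.9% of 7713 tested genes and 19.2% of all 32851 promoters. CCAAT was present in 22 of 27 (81.5%), against 42.6% of tested genes and 37.4% of all promoters. It was also in 64.3% of branched-chain, 57.9% of tricarboxylic acid cycle, 52.2% of fatty acid and 43.1% of respiratory chain genes, lists with mostly rises among their calls. Among all called genes, CCAAT was in 45.9% of those that fell and 44.2% of those that rose, and a CHR in 19.5% and 15.3%. E2F letters (TTTCCCGC, TTTGGCGC, TTTCGCGC or TTTGCCGC, which overlap one another in part) were present in 11 of 22 replication genes (50%) and in 1 of 27 mitosis genes, against 4.93% of tested genes and 2.26% of all promoters. For comparison, letters bound by oestrogen-related receptors (TNAAGGTCA) were in 0 of 23 fatty acid genes, 1 of 19 tricarboxylic acid cycle genes (5.26%) and 3 of 65 respiratory chain genes (4.62%). They were in 0.856% of tested genes and 1.28% of all promoters, so the last 2 lists lay above the background, on few genes. A match is not a shown site, and the lack of one says only that these letters are absent from the window.

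The promoters of Cdk1, Plk1 and Rfc3 are printed as examples of list members that fell and hold these letters. Not every member of the lists could be chosen. Rfc3, a subunit of the clamp loader, averaged 2.65 ± 0.309 at P23 and 11.1 ± 1.51 at P01. The call of Rfc3 was lost at thinned depth (edgeR adjusted p = 0.0869). Cdk1 is shown from chr10:69352863-69353162 on the minus strand and Plk1 from chr7:122159185-122159484 on the plus strand, with CHR and CCAAT in capitals, on either strand. Rfc3 is shown from chr5:151651159-151651458 on the minus strand, with E2F letters in capitals (RefSeq, GRCm38.p6, each read 5′ to 3′ along its gene).
Cdk1: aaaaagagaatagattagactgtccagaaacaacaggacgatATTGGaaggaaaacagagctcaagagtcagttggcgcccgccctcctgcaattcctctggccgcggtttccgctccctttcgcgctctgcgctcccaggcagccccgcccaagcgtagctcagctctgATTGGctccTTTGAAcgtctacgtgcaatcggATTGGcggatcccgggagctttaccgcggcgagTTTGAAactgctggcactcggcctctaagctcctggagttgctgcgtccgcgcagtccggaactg
Plk1: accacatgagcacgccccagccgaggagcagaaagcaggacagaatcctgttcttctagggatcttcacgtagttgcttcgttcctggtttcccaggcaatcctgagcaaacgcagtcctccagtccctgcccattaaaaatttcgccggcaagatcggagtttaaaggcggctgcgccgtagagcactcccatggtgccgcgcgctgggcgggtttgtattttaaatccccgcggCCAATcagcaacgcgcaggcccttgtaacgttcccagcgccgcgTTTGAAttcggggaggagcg
Rfc3: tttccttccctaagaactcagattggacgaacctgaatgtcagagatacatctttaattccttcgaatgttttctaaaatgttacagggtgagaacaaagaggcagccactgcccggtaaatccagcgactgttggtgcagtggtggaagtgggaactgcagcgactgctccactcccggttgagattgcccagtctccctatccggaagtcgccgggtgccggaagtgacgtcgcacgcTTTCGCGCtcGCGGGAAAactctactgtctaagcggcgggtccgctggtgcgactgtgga
In capitals, Cdk1 holds 2 CHR elements and 3 inverted CCAAT boxes, and Plk1 1 CHR and 1 CCAAT. Rfc3 holds 2 sets of E2F letters on opposite strands, in capitals. Only the elements named for each gene were marked. In lower case, Cdk1 also holds E2F letters, and it is the mitosis gene counted with them above. Rfc3 also holds a CHR and an inverted CCAAT box in lower case. The printed examples therefore do not show a clean split between mitosis and replication promoters.

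Most imprinted genes of fetal growth fell. Of 23 tested, 18 fell and 1 rose, with a median of −1.65. H19, the lncRNA expressed from the maternal copy, had 18.7, 32.7, 32.7 and 27.1 normalized counts in P23 libraries and 779.5, 741, 914 and 820.1 in P01 libraries, a 29-fold fall (edgeR adjusted p = 3.62e-19). Its span holds Mir675, whose reads cannot be told apart from its own. The paternally expressed growth factor Igf2 next to it averaged 3.4 ± 2.36 at P23 and 45.1 ± 8.62 at P01, and the paternally expressed gene Mest 18.9 ± 5.74 at P23 and 359 ± 22.7 at P01. Genes of both parental origins fell, as did the growth inhibitor Grb10 (81.6 ± 11.2 at P23 and 274 ± 17 at P01). Igf2r, the receptor that clears Igf2, fell by 0.98 on the log2 scale and was no longer called without P23 replicate 8 (−0.81). Snrpn, of the Prader-Willi region, was the member that rose, 2.35-fold, with 0.86 on the log2 scale and no call with library totals.

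The domain between Dlk1 and Dio3 on chromosome 12 (chr12:109452485-110281097, GRCm38.p6) fell in nearly all its tested genes. It is imprinted, and its maternal copy is known to make the lncRNAs Meg3, Rian and Mirg with rows of snoRNAs and miRNAs inside them. The table held 90 genes there, of which 47 were tested, 45 fell and 0 rose, against 16.6% of all tested genes that fell. The region was picked after its values were seen and carries no test. All 35 tested miRNA genes fell (median −1.97), all 6 snoRNAs (median −3.06) and all 3 lncRNAs (median −2.44). Summed, the 6 snoRNAs had 172 ± 35.4 normalized counts at P23 and 1367 ± 75.9 at P01, and the 35 miRNA genes 981 ± 239 at P23 and 3723 ± 388 at P01.

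Dlk1, a paternally expressed Notch ligand-like protein, had 1.1, 2.89, 1.87 and 0 normalized counts in P23 libraries and 71, 87.2, 63.6 and 83.6 in P01 libraries, a 44.4-fold fall. The other 2 protein-coding genes, Rtl1 (−0.30 ± 0.44) and the deiodinase Dio3 (−0.17 ± 0.40), had few counts and were not called, and their sign changed when single libraries were left out. Meg3 averaged 38.4 ± 13.2 at P23 and 209 ± 38.2 at P01, and Rian 62.1 ± 12.5 at P23 and 163 ± 39.2 at P01. The snoRNA Gm23787 had 92.3, 105, 70.9 and 120.4 in P23 libraries and 796, 753, 781 and 789 in P01 libraries, an 8.05-fold fall with narrow spread at P01. Of the 5 tested genes before the domain 1 fell, and of the 5 after it 1 rose. Over the rest of chromosome 12, 55 of 363 tested genes fell and 50 rose, with a median of 0.06. The levels had started to drop by P04, where the snoRNA sum was 948 ± 100.4, and at P09 it was 497 ± 46.5.

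**Figure D4:**
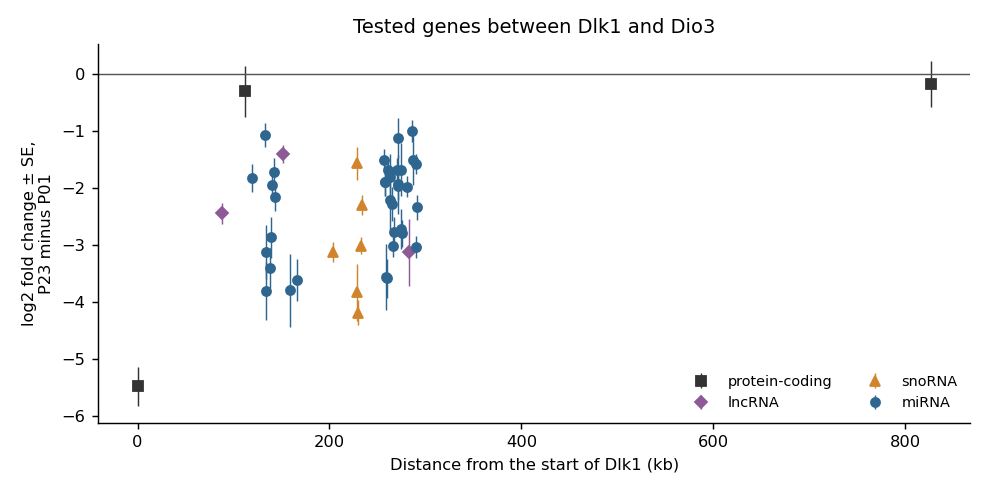
Log2 fold change, P23 minus P01, with its SE (y axis) of the 47 tested genes between Dlk1 and Dio3, against distance from the start of Dlk1 (x axis, kb). Marks show RNA classes; 45 genes fell, and Rtl1 and Dio3 lay near 0 and were not called.

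All 35 tested miRNA genes of the domain had mature sequences in RefSeq, 67 in all, and 4 seeds (bases 2 to 8, which pair with targets) occurred in more than 1 gene. The mature forms that share them are printed with the seed in capitals (GRCm38.p6, plus strand of chromosome 12). All 35 genes fell, with or without a shared seed, so the falls say nothing about seeds.
mmu-miR-1193-3p (chr12:109715750-109715770): uAGGUCACccguuuuacuauc
mmu-miR-370-5p (chr12:109618270-109618289): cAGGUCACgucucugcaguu
mmu-miR-379-3p (chr12:109709102-109709123): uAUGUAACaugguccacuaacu
mmu-miR-411-3p (chr12:109710225-109710246): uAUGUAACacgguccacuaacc
mmu-miR-1193-5p (chr12:109715716-109715735): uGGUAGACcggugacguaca
mmu-miR-379-5p (chr12:109709065-109709085): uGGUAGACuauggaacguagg
mmu-miR-376b-5p (chr12:109723471-109723492): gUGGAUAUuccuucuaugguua
mmu-miR-376c-5p (chr12:109722733-109722754): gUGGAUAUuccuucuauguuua
Counts are per gene and do not tell the arms apart, so none of the values belongs to one arm.

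RNA-binding proteins and chromatin factors that the fetus expresses and that let-7 is known to repress fell in 6 of 7 tested cases (median −3.69). Igf2bp3, which binds Igf2 mRNA, had 1.1, 0.962, 2.8 and 1.35 normalized counts in P23 libraries and 24.2, 20.9, 19.8 and 23.5 in P01 libraries. Hmga1, a chromatin protein of growing tissue, fell to 25.8 ± 3.57 at P23, against 223 ± 35.5 at P01, and had fallen to 67.4 by P04. Lin28b, which blocks let-7 maturation, averaged 1.06 ± 1.56 at P23 and 19.2 ± 6.71 at P01, and Trim71, itself a let-7 target, 1.71 ± 1.18 at P23 and 71.3 ± 40.5 at P01. Among 11 genes of the insulin-like growth factor system, 3 rose and 4 fell, and the receptor Igf1r fell to 48.5 ± 13, against 129.9 ± 20.2.

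Long non-coding RNAs fell more often than they rose. Of 195 tested, 79 fell (40.5%) and 17 rose (8.72%), against 16.6% and 13.5% of all tested genes, and 28 of 79 tested pseudogenes fell and 3 rose (49 and 1 with library totals). Zfas1, a host of snoRNAs, had 40.7, 61.6, 44.8 and 39.2 normalized counts in P23 libraries and 568, 918, 569 and 550.1 in P01 libraries, and it had dropped to 80.6 by P04. Its span holds Snord12 and other small RNA genes, whose reads cannot be told apart from its own. Miat, an lncRNA first tied to myocardial infarction in humans, averaged 6.5 ± 3.78 at P23 and 71 ± 7.08 at P01. Of 14 tested host genes of snoRNAs, 6 fell and 0 rose. Neat1, the scaffold of nuclear paraspeckles, rose 2.88-fold with 359, 281, 284 and 277 in P23 libraries and 122, 89.1, 117 and 86.6 in P01 libraries. Malat1, a nuclear lncRNA of most tissues, was at −0.31 and not called.

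For snoRNAs the share of genes not called was 76.2% of C/D snoRNAs and 75.0% of those without an assigned box, against 69.8% of all tested genes. Of 42 tested C/D snoRNAs 6 rose (14.3%, against 13.5% of all genes) and 4 fell, of 17 tested H/ACA snoRNAs, which guide pseudouridylation, 0 were called by edgeR or DESeq2 (3 at an unadjusted p under 0.05 in edgeR), and of 88 without an assigned box 4 rose and 18 fell, 6 of them from the Dlk1 to Dio3 domain. For H/ACA snoRNAs, 2 of 17 had libraries that did not overlap, against 41.7% of all genes. The C/D counts moved with the scaling, since 1 rose and 12 fell with library totals. Snord71 rose 3.27-fold to 2890.3 ± 624 at P23, against 884 ± 60.3 at P01, and stood at 859.6 at P04 and 764 at P09. Snord104 had 5939, 6757, 5163 and 13026 in P23 libraries and 2647, 3116, 3492 and 3613 in P01 libraries, with replicate 8 above the other P23 libraries, and was not called with library totals (0.83).

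Other small RNAs included a vault RNA. Vaultrc5, a part of the vault particle, had 3535, 4005, 4454 and 3451 normalized counts in P23 libraries and 573, 565, 743 and 691 in P01 libraries, a 6-fold rise (edgeR adjusted p = 3.04e-14), with 1116 at P04 and 2278 at P09. The Y RNA Rny1 rose 1.87-fold and lost its call without P23 replicate 5 (0.84) and with library totals (0.54), and Rny3 was 1.68-fold higher and gained a call without P01 replicate 6 (0.86) or P23 replicate 8 (0.87). Rn7sk, the RNA that holds back transcription elongation, was at 0.03 on the log2 scale. Of 130 tested small nuclear and other small RNAs, 5 rose and 29 fell (1 and 63 with library totals). Gm25360 fell to 228 ± 57.4 at P23, against 1150.3 ± 67.3 at P01, and Gm22973 to 326 ± 68, against 1473 ± 95.2. In the rRNA genes, Gm42418, which took the most counts at both ages, had 1668946, 1522925, 1407486 and 2000913 in P23 libraries and 1849625, 1898936, 1596501 and 1743001 in P01 libraries and was not called (−0.10). Gm26917 fell 4.01-fold to 23579 ± 4293, against 94574 ± 11969.

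Cytoplasmic ribosomal protein genes were mostly uncalled, with 6 of 82 falling, 3 rising and a median of −0.38, and 35 fell with library totals. Those of the mitochondrial ribosome had a median of 0.50, with 10 of 73 rising and 0 falling, and 1 rose and 1 fell with library totals. Eef1a1, the general elongation factor, fell to 497 ± 96.6 at P23, against 1958 ± 143 at P01.

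The matrix changed in its make-up. Of 31 tested genes of collagens and the interstitial matrix, 6 rose and 9 fell, and with library totals 5 rose and 15 fell. Periostin (Postn), of the immature matrix, had 51.6, 70.2, 46.7 and 67.6 normalized counts in P23 libraries and 263, 239, 342 and 377 in P01 libraries, after 413 at P04 and 427 at P09. Fibronectin (Fn1) fell to 69 ± 2.48 at P23, against 199.7 ± 17.1, versican (Vcan) to 41.3 ± 7.17, against 154 ± 23.3, and fibrillin 2 (Fbn2) to 15.1 ± 1.34, against 137 ± 14.2. Decorin (Dcn), a small proteoglycan of adult tissue, rose 2.89-fold to 659.7 ± 60.2, against 228 ± 25.4. In the basement membrane the laminin chain Lamb2 rose 3.45-fold and Col18a1 fell by 2.48 on the log2 scale. Fibroblast markers rose in 4 of 8 tested cases and fell in 1, with a median of 0.96 (3 rose and 2 fell with library totals). The marker that fell was the fibroblast factor Tcf21 (−1.05). Col1a1 (−0.60) and Col3a1 (0.08), the main fibrillar collagens, were not called.

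Markers of other cell types moved with age as well, and their part in the results above was not tested. All 5 tested erythroid markers rose (median 2.55), and the list summed to 5118 to 6774 in P23 libraries and 1435 to 1518 in P01 libraries. The adult globin Hbb-bs had 5263, 3779, 4626 and 4929 normalized counts in P23 libraries and 1154, 1143, 1161 and 1177 in P01 libraries, and Alas2, the first enzyme of haem synthesis in red cells, averaged 54.7 ± 4.43 at P23 and 9.03 ± 4.56 at P01. Globin copies are near-identical and may share reads. Of 8 tested macrophage markers 4 rose and 0 fell, with a list sum of 328 to 421 at P23 and 118 to 147 at P01, and C1qb, a complement subunit, averaged 51.3 ± 12.7 at P23 and 7.08 ± 2.84 at P01. Pericyte and smooth muscle markers rose in 7 of 11 cases, and with library totals 3 rose and 1 fell, with Rgs5 at 427 ± 51.1 at P23 and 67.6 ± 8.29 at P01.

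Of 14 tested endothelial markers 1 rose and 0 fell, with a median of 0.15. Of 4 tested epicardial markers 2 fell. Of 4 tested atrial markers 1 fell, and the list summed to 196 to 452 at P23 and 580.3 to 797 at P01. The 14 lymphocyte markers all missed the filter on low counts and summed to 7.69 to 19.8 at P23 and 0 to 5.65 at P01.

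Genes of oxygen sensing and of the clock gave no common direction. Of 15 tested hypoxia genes 4 rose and 4 fell, and the falls included Car9, a carbonic anhydrase, with 7.69, 1.92, 0.933 and 1.35 normalized counts in P23 libraries and 65, 66.4, 55.1 and 64.6 in P01 libraries. Of 16 clock genes 4 rose and 3 fell. The repressor Nr1d1 rose 4.38-fold, whereas Per2 fell to 6.09 ± 3.66, against 20.1 ± 6.02. The time of day of tissue collection is not given in the sources used here. Antioxidant genes rose in 6 of 17 cases, and in 3 with library totals, and fell in 0.

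Several single genes changed by more than most list members. Tuba8, an alpha tubulin of heart and skeletal muscle, was counted with 414 reads at P23 and 1 at P01, a P23 over P01 ratio of 284 (50.7 to 11241, 95% counting interval). Lrtm1, a leucine-rich repeat membrane protein, had 1081, 948, 1085 and 1479.8 normalized counts in P23 libraries and 72.5, 56.9, 49.4 and 66 in P01 libraries. Trim72, which helps to repair the sarcolemma, was counted with 216 reads at P23 and 3 at P01, a ratio of 49.4 (16.7 to 241). Hspb8, a small heat shock protein, rose 13-fold.

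Wnt4, a secreted signalling protein, fell to 1.67 ± 1.37 at P23, against 109.8 ± 22.4 at P01, and was at 7.49 by P04. In Adamts4 and Apbb1ip the P23 values were wide apart. Adamts4, a protease of matrix proteoglycans, had 4975, 3290.4, 3982 and 34230.0 in P23 libraries and 4.53, 11.4, 7.06 and 11.7 in P01 libraries, with the highest value in replicate 8. Apbb1ip, an adaptor of integrin signalling, had 260.4, 1182, 139 and 8.12 in P23 libraries and 1.51, 5.69, 1.41 and 2.93 in P01 libraries. B3gat1, a glucuronyltransferase, had 0, 0.962, 0.933 and 2.71 in P23 libraries and 1157, 1513, 1154 and 1188 in P01 libraries (edgeR adjusted p = 0.00401, and 0.012 to 0.0151 with 1 P23 library left out). Mfsd11, a membrane protein of the transporter family, had 28.4 to 36.5 in P23 libraries and 2030.4 to 3099 in P01 libraries. Reads that pile up on one stretch of such genes cannot be seen in a table of counts per gene.

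Of 212 tested miRNA genes 29 rose (13.7%) and 89 fell (42.0%), against 13.5% and 16.6% of all tested genes. The Dlk1 to Dio3 domain alone held 35 of the miRNA genes that fell. Those with a mean of at least 300 and the largest rises were Mir150, Mir29a and Mir3107. Mir150, known from mature lymphocytes, had 3769, 4846, 2841 and 2679.6 normalized counts in P23 libraries and 153, 169, 148 and 147 in P01 libraries, and Mir29a, known to repress collagens, had 524, 774, 449 and 579 in P23 libraries and 45.3, 45.5, 39.5 and 52.8 in P01 libraries. Mir351 fell to 352 ± 87.3 at P23, against 7009.8 ± 1021 at P01. Gm23388, annotated as a miRNA, had 3.3, 0.962, 2.8 and 0 in P23 libraries and 2301, 20.9, 53.7 and 1160.4 in P01 libraries, and its call was lost when any P23 library or P01 replicate 1 was left out (edgeR adjusted p = 0.00395 with all, 0.0109 to 0.0145 without one). Mir6240 fell to 21.3 ± 3.31 at P23, against 386 ± 79.6 at P01. A mature form each of Mir29a, Mir150, Mir351 and Mir6240 is printed with the seed in capitals (RefSeq, GRCm38.p6). Counts are per gene and do not tell the arms apart, so the values are not those of the printed arm. For Mir150 only the 3p arm was in the reference used, whereas the paper names miR-150-5p as the form that rose.
mmu-miR-29a-3p (chr6:31062673-31062694, minus strand): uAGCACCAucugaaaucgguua
mmu-miR-150-3p (chr7:45121798-45121819, plus strand): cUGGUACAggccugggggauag
mmu-miR-351-5p (chrX:53053315-53053338, minus strand): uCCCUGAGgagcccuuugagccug
mmu-miR-6240 (chr5:114851973-114851998, plus strand): cCAAAGCAucgcgaaggcccacggcg

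The path through P04 and P09 differed between the lists. Over all called non-miRNA genes, the median gene that rose had covered 27.4% of its log2 change by P04 and 59.3% by P09, and the median gene that fell 30.0% and 64.9%. These values depend on the scaling and were 114% and 42.0% at P09 with library totals. Genes of fatty acid oxidation that rose had covered 59.5% by P04 and 83.4% by P09, ahead of those of the tricarboxylic acid cycle with 15.0% and 64.8%, and of the respiratory chain with 12.2% and 48.2%. Branched-chain amino acid breakdown had moved by −6.33% by P04 and 9.35% by P09, so that most of its rise lay between P09 and P23, and mitochondrial tRNAs were alike with −2.46% and 12.2%.

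The median level of mitosis genes at P04 was 75.3% of that at P01, with 66.9% at P09 and 6.87% at P23, and that of DNA replication genes was 122%, 96.4% and 26.6%. Histone genes stood at 68.3%, 57.3% and 13.0%. The imprinted genes declined more evenly, with 88.3% at P04, 58.3% at P09 and 31.5% at P23, and the oncofetal genes were at 70.7%, 24.4% and 7.04%. All comparisons in time share the P01 and P23 libraries, and differences in timing between lists were not tested.

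**Figure D5:**
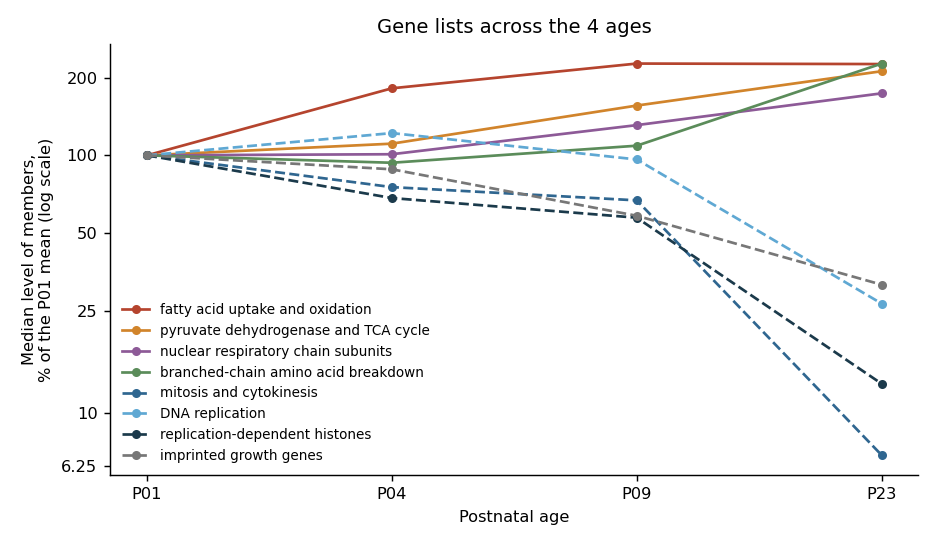
Median level of the tested members of 8 gene lists (y axis, % of the P01 mean, log scale) at the 4 ages, evenly spaced (x axis). Solid lines are lists that rose and dashed lines lists that fell; mitosis genes were at 66.9% at P09 and 6.87% at P23, and fatty acid genes at 227% at P09 and 226% at P23.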

How the data were processed

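Small RNA of mouse ventricles was measured in 16 libraries, of which 4 P23 and 4 P01 libraries, grouped by their labels, were compared. The authors put 500 ng of total RNA into the SMARTer smRNA-Seq kit, sequenced on a NextSeq instrument, and used bcl2fastq, Trimmomatic, STAR, GRCm38.p6 and featureCounts, with no version stated. Raw counts per gene were deposited by the authors. 1 value column matched no sample and was not used. The kit has no molecular identifiers, so intervals cover counting error only.

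Genes with filterByExpr's minimum count of 10 and minimum total of 15 were tested with edgeR 4.0.16 (quasi-likelihood, robust, TMM, 1 fit of all 16 libraries, Benjamini-Hochberg) in R 4.3.3, at the study's thresholds of an adjusted p of 0.01 and a fold change of 1.8. Each standard error is the absolute log2 fold change over the square root of F. Shares of log2 change used means plus 0.5. RNA classes and coordinates came from RefSeq GRCm38.p6 by gene symbol, and 38320 of 53801 genes matched. Classes also used the form of the symbol and, for miRNAs, the paper's own list. Gm42418 and Gm26917, lncRNA models over sequence like that of rRNA genes, were put into nuclear rRNA by hand. Figures were drawn with matplotlib 3.10.9. The test was checked on simulated counts.

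Members, lists and pairs were chosen with earlier results of these data known. Named genes were list members, the 15 largest rises and falls without overlap at a mean of 50 or more, the 5 largest per non-coding class, the 10 with most counts at each age and the 3 largest miRNA changes in each direction at a mean of 300 or more. Alternatives were other scalings, filters, thresholds, depth, DESeq2 1.42.0, a fit of 8 libraries, leaving out each library and a replicate block. Same-numbered libraries did not deviate together (correlations −0.0192 to 0.0194). Some items are not reported here.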

Additional observations from a re-analysis of the deposited data

Results flagged for a closer look

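Among the genes whose values are given, 344 groups of 4 libraries were examined for a library far from the other 3. Such a library was found in 22 groups (6.4%). For normally distributed values chance gives about 1 in 20, a rate that does not hold for counts near 0. A group with 0 in all but 1 library is always flagged, so such flags do not show a deviating library. The values are normalized counts.

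Tuba8 had 1.9 in P01 replicate 5 (the others 0). Adamts4 had 34230.0 in P23 replicate 8 (the others 3290.4 to 4975). mt-Th had 104 in P23 replicate 1 (the others 95.2 to 96.1) and 2.93 in P01 replicate 8 (the others 0). Cox6a2 had 432 in P01 replicate 5 (the others 462 to 467). Ppara had 79.3 in P23 replicate 6 (the others 60.6 to 61.5). Rxrg had 3.79 in P01 replicate 5 (the others 1.41 to 1.51). Nrf1 had 189.6 in P01 replicate 5 (the others 129 to 133). Thrb had 1.41 in P01 replicate 6 (the others 0). Ccnb1 had 0.962 in P23 replicate 5 (the others 0).

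Plk1 had 0 in P23 replicate 8 (the others 0.933 to 1.1) and 32.3 in P01 replicate 8 (the others 22.6 to 24.2). Plagl1 had 9.89 in P23 replicate 1 (the others 13.1 to 13.5). Snrpn had 18.9 in P23 replicate 8 (the others 37.4 to 39.2). DQ267102 had 225 in P01 replicate 6 (the others 166 to 172). Neat1 had 359 in P23 replicate 1 (the others 277 to 284). Zfas1 had 918 in P01 replicate 5 (the others 550.1 to 569). Lyz2 had 9.89 in P01 replicate 6 (the others 14.7 to 15.2). C1qb had 70.3 in P23 replicate 8 (the others 43.9 to 46.2). Car9 had 7.69 in P23 replicate 1 (the others 0.933 to 1.92) and 55.1 in P01 replicate 6 (the others 64.6 to 66.4). B3gat1 had 1513 in P01 replicate 5 (the others 1154 to 1188). P01 replicate 5 held 6 of these values, P23 replicates 1 and 8 and P01 replicate 6 held 4 each.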

How the results depend on the processing

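No gene called in both was called in opposite directions under any alternative of scaling, filter, depth, tool or left-out library. A change of threshold alone cannot reverse a call. Reversal under the others needs a shift from beyond the fold threshold on one side to beyond it on the other. The median shift with library totals was −0.37 on the log2 scale. With library totals as the only scaling, 722 genes rose and 2733 fell, 7 tricarboxylic acid cycle, 7 branched-chain and 5 respiratory chain genes rose, and the share of log2 change reached at P09 was 114% for rises and 42.0% for falls. With a stricter filter on low counts, which left 2905 genes, 497 rose and 490 fell, and the lists held 7 falling mitosis genes, 1 of DNA replication, 9 histone and 10 imprinted genes, and 11 rising tricarboxylic acid cycle, 5 branched-chain and 20 respiratory chain genes. At an adjusted p under 0.05 with no fold minimum, 2482 genes rose, 70 of them respiratory chain genes. DNA replication genes that fell numbered 11 in a fit of the P23 and P01 libraries alone, 11 at thinned depth and 11 with a replicate block. The block gave 1281 rises and 1514 falls, of which 1254 and 1460 were shared. Same-numbered libraries share only a number. Without rRNA genes in the total, the P23 share was 0.889 times that at P01 for C/D snoRNAs, 0.971 for miRNAs and 0.962 for protein-coding genes. DESeq2 called 1337 rises and 1774 falls.

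Leaving out 1 library at a time, 1388 to 1542 genes rose and 1636 to 1798 fell. The P23 over P01 ratio of class shares was 0.647 to 0.689 for C/D snoRNAs, 1.25 to 1.43 for lncRNAs, 0.682 to 0.763 for miRNAs, 2.68 to 3.32 for mitochondrial mRNA, 2.0 to 2.12 for mitochondrial rRNA, 2.75 to 2.9 for mitochondrial tRNA, 0.667 to 0.692 for nuclear rRNA and 0.673 to 0.755 for protein-coding genes. With 3 libraries against 4, several of these shares no longer passed the exact permutation test. Signs changed for mt-Nd6 (−0.05 with library totals), for Rtl1 (−0.65 to 0.03 without 1 library, with 0.03 without P01 replicate 8) and for Dio3 (−0.44 to 0.22, with 0.03 without P23 replicate 1 and 0.0 without P23 replicate 6). The cause of these changes was not tested. P01 libraries held the fewest counts of the 4 ages, which limits genes of low count at that age.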

Other observations

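Some genes that did not differ between P23 and P01 by the calls above had other levels in between. Of 7407 uncalled genes other than miRNAs, 19 were at least 2-fold higher at P09 than at both ends without overlap, and 23 were at least 2-fold lower. Pdk4, a kinase that switches off pyruvate dehydrogenase, averaged 64.4 at P01 and 86.4 at P04, then 161.9 at P09 and 76.3 at P23, and Acot2, a mitochondrial thioesterase, 44.0, 99.3, 99.8 and 47.6 at the same ages. Among the lower genes, Mgp, an inhibitor of calcification, averaged 1215 at P01 and 723 at P04, then 582 at P09 and 1623 at P23. These genes were picked by their values and carry no test.

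Genes of the sex chromosomes separated the libraries within each age. Xist, made from the inactive X chromosome, had 2.2, 245, 258 and 303 normalized counts in P23 libraries and 1.51, 558, 586 and 584 in P01 libraries. The Y-linked gene Ddx3y had 92.3, 0, 0.933 and 0 in P23 libraries and 66.5, 1.9, 0 and 7.34 in P01 libraries. Eif2s3y, also Y-linked, had 60.4, 140.4, 0.933 and 0 in P23 libraries and 54.4, 0, 0 and 0 in P01 libraries, so that P23 replicate 5 had reads of both Xist and Eif2s3y.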
